A study of Saccharomyces cerevisiae with 6 samples.

Results

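Auxotrophic marker genes are biosynthetic genes whose loss makes yeast depend on an added nutrient, and laboratory strains carry defective alleles of several of them so that plasmids and gene replacements can be selected. TRP1 encodes phosphoribosylanthranilate isomerase of tryptophan synthesis, LEU2 encodes beta-isopropylmalate dehydrogenase of leucine synthesis, and HIS3 encodes imidazoleglycerol-phosphate dehydratase of histidine synthesis. URA3 encodes orotidine-5′-phosphate decarboxylase of uracil synthesis, which also makes cells sensitive to 5-fluoroorotic acid, and LYS2 encodes alpha-aminoadipate reductase of lysine synthesis. The YEF473 background is known to carry deletion alleles of TRP1, LEU2 and HIS3, a URA3 allele with a transposon inserted in it and a LYS2 allele with a stop codon. The sources used here do not give the marker genotype of either strain, so the alleles are described below only by the reads that map to them.

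The 5 loci were the gene bodies with 1000 bp on each side, 17413 bp of the 12070439 bp of the nuclear genome. They were TRP1 (YDR007W) at chr4:461842-462516, LEU2 (YCL018W) at chr3:91324-92418, HIS3 (YOR202W) at chr15:721946-722605, URA3 (YEL021W) at chr5:116167-116970 and LYS2 (YBR115C) at chr2:469748-473926, the last of these on the minus strand. These positions are approximate on sacCer1, the build of the reads: the starts, and all ends but that of HIS3, are those of the newer R64 annotation, so an edge may be off by some bases.

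Nucleosomes were mapped by MNase-seq, in which micrococcal nuclease cuts linker DNA and what nucleosomes protect is sequenced. The H3 shutoff strain (DCB200.1), in which HHT1 is deleted and HHT2, the other histone H3 gene, is driven by the GAL1 promoter, was sampled 3 h (n = 2) and 0 h (n = 2) after a shift from galactose to dextrose, which turns that promoter off. Wildtype (YEF473A), with its own H3 genes, was sampled at 3 h (n = 1) and 0 h (n = 1) after the same shift. The 3 h and 0 h libraries of a replicate came from 1 culture, so H3 shutoff had 2 cultures and wildtype had 1. Below, n counts libraries, and an SD over both times treats samples of 1 culture as separate. Each library held 5000001 reads, or 41.4 read centres per 100 bp, extended to 158 and 165 bp for the 3 h H3 shutoff libraries, 170 and 172 bp for the 0 h ones and 174 bp for wildtype. Distinct reads made up 51.9% to 64.5% of H3 shutoff libraries and 46.2% and 47.8% of wildtype libraries. Depth at a locus mixes how many copies of the DNA the cells hold, how well reads map there and how well nucleosomes protect it, and these cannot be told apart here.

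HIS3 had no reads over its whole body in any of the 6 libraries, LEU2 lacked reads over an inner stretch in all 6, and TRP1 lacked reads over part of its body in wildtype only. URA3 and LYS2 were covered throughout in both strains. URA3 had about 2 times the depth in wildtype that it had in H3 shutoff. Depth is given below as read centres per base divided by the genome mean of the same library, so that 1 is the genome mean.

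**Figure D1:**
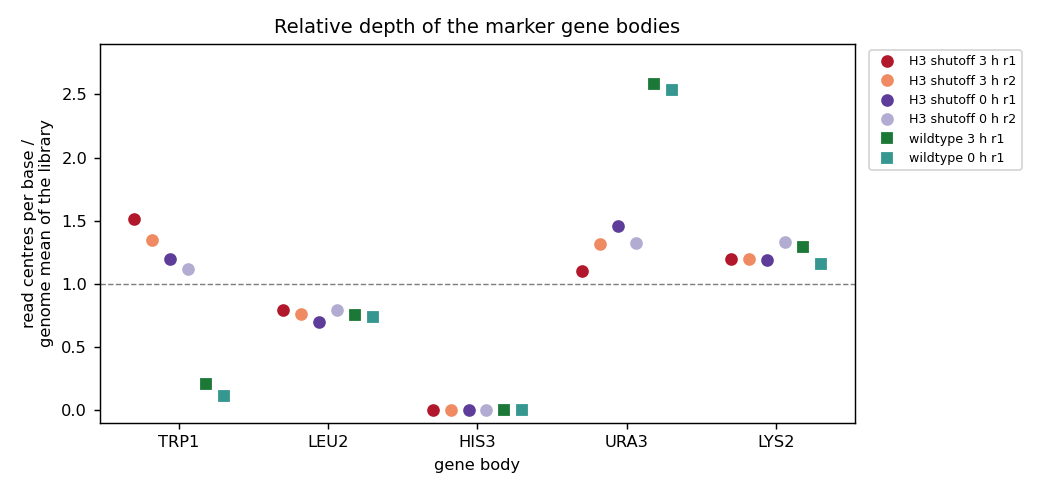
Relative depth of each marker gene body (read centres per base over the genome mean of the library, dashed line at 1) in the 4 H3 shutoff libraries (circles) and the 2 wildtype libraries (squares). HIS3 is at 0 in all 6 libraries, TRP1 is lower and URA3 higher in wildtype, and LEU2 and LYS2 overlap between the strains.

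A stretch without reads was defined as at least 100 bp in a row that no extended read covered. Such stretches took up 5.58% to 5.83% of the loci in H3 shutoff and 7.75% and 7.80% in wildtype, against 0.171% to 0.179% of the genome in H3 shutoff and 0.199% and 0.238% in wildtype. Counting only bases empty in every library of a strain, 29 stretches were found in H3 shutoff, 2 of them at the marker genes, and 63 in wildtype, 3 of them at the marker genes. The first count is over 4 libraries and the second over 2, so they do not compare the strains. Single libraries had 75 to 89 stretches in H3 shutoff and 96 (3 h) and 118 (0 h) in wildtype. Of the 29 in H3 shutoff, 0 were covered in full in both wildtype libraries. Of the 63 in wildtype, 1 was covered in full in all 4 H3 shutoff libraries, and this one lay in TRP1. Reads that start beside a missing segment are extended into it, so each stretch is shorter than the segment that yields no reads.

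TRP1 is the marker at which the strains differed in the presence of reads. In wildtype the stretch without reads was 351 bp long at 3 h, from 41 to 391 bp after the gene start, and 342 bp long at 0 h, from 37 to 378 bp. It covered 52.0% and 50.7% of the gene body at 3 h and 0 h. The stretch common to both wildtype libraries was chr4:461883-462220, 338 bp. In H3 shutoff the same 338 bp held 200 and 174 read centres at 3 h and 151 and 137 at 0 h, against 0 in each wildtype library. These 338 bp were chosen for having no reads in wildtype, so its counts of 0 were fixed in advance and give no fold. Coverage of these bases was complete in each H3 shutoff library.

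Over the whole TRP1 body the relative depth was 1.52 and 1.35 in the 3 h H3 shutoff libraries, 1.20 and 1.12 in the 0 h ones, against 0.21 (3 h) and 0.11 (0 h) in wildtype. The strains did not overlap, with means of 1.30 ± 0.18 in H3 shutoff (SD, n = 4 libraries of 2 cultures) and 0.161 in wildtype (n = 2 libraries of 1 culture), a ratio of 8.05. The difference between strains was tested with edgeR on read centres in 1 kb windows and in the 15 gene bodies and flanks, fitted together. It was 3.02 on the log2 scale for the TRP1 body (SE 0.25, Benjamini-Hochberg adjusted p = 0.000215), above the value of each of the 12036 genome windows. H3 shutoff covered the body while wildtype kept only 58 and 32 read centres in it at 3 h and 0 h, most of them near the end of the gene.

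The difference reached past the gene body. In bins of 50 bp, every H3 shutoff library was above both wildtype libraries without a break over 20 bins, 250 bp before to 749 bp after the gene start. Mean coverage there was 75.7 extended reads per base in H3 shutoff, with libraries between 64.7 and 85.8, and 13.9 in wildtype, with libraries at 15.5 and 12.4. The 1 kb before the gene had relative depths of 1.09 and 1.06 in the 3 h H3 shutoff libraries, 1.16 and 0.82 in the 0 h ones, against 0.96 (3 h) and 0.55 (0 h) in wildtype. These overlapped between the strains, as did those of the 1 kb after it. The share of genome bins without overlap between the strains was not computed. Of the 1 kb genome windows 24.5% had none. Runs of such bins reached 7 in LEU2, 4 in HIS3 and 5 in LYS2.

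**Figure D2:**
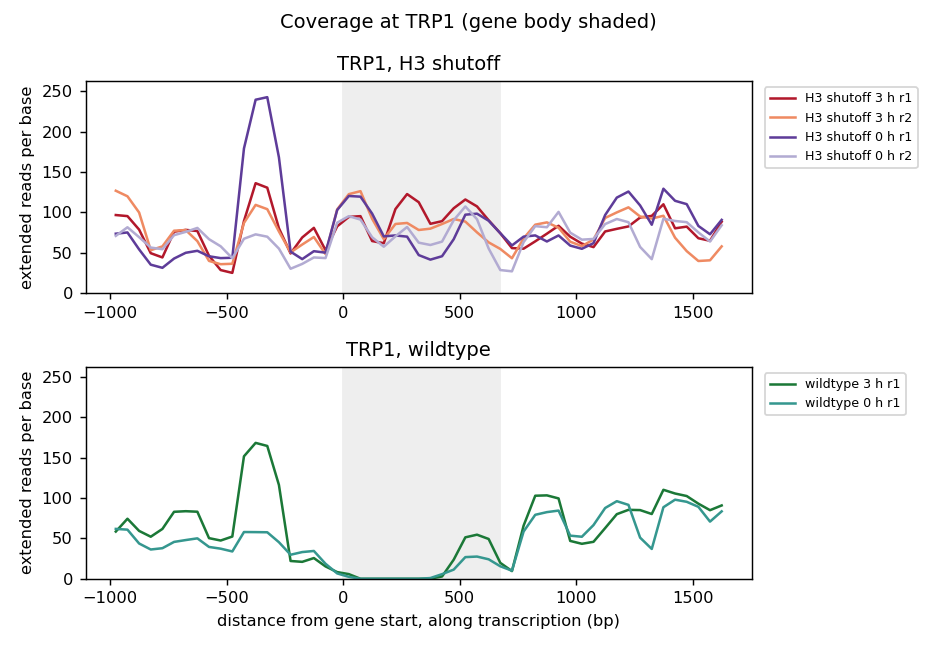
Extended reads per base in bins of 50 bp along TRP1 in the 4 H3 shutoff libraries (top) and the 2 wildtype libraries (bottom), against distance from the gene start in the direction of transcription. H3 shutoff is covered throughout, and wildtype is at 0 from 41 to 378 bp after the gene start.

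The nucleosome lists deposited with the reads showed the same gap. With more than 5 read centres required, the TRP1 body held 4 and 4 called nucleosomes in the 3 h H3 shutoff libraries, 4 and 3 in the 0 h ones, against 1 (3 h) and 1 (0 h) in wildtype. The first H3 shutoff nucleosome was centred 24 to 31 bp after the gene start, with 81 and 105 read centres at 3 h and 99 and 83 at 0 h. No wildtype nucleosome was called between 168 bp before and 585 bp after the gene start. The wildtype one at 585 bp at 3 h and 589 bp at 0 h had 48 and 22 read centres. A nucleosome before the gene, 351 to 356 bp from its start, was present in all 6 libraries, with 128 and 101 read centres in the 3 h H3 shutoff libraries, 221 and 70 in the 0 h ones, against 164 (3 h) and 57 (0 h) in wildtype.

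LEU2 lacked reads in the same inner part of its body in both strains. The stretch was 232 and 226 bp long in the 3 h H3 shutoff libraries, 222 and 199 bp in the 0 h ones, against 234 bp (3 h) and 232 bp (0 h) in wildtype. It began 277 to 293 bp after the gene start in H3 shutoff and 263 and 261 bp after it in wildtype, and took up 18.2% to 21.4% of the body. The bases empty in all libraries of a strain were chr3:91617-91815 in H3 shutoff and chr3:91587-91816 in wildtype.

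The rest of the LEU2 body was covered in both strains. The relative depth of the whole body was 0.79 and 0.76 in the 3 h H3 shutoff libraries, 0.70 and 0.80 in the 0 h ones, against 0.75 (3 h) and 0.74 (0 h) in wildtype. These depths are over all 1095 bp, of which 370 to 407 bp in a row held no read centre, so the rest was deeper. The means were 0.762 ± 0.045 in H3 shutoff (SD, n = 4) and 0.747 in wildtype (n = 2), and the strains overlapped. The edgeR difference was 0.01 on the log2 scale (SE 0.15, adjusted p = 0.964). The body held 5 and 5 called nucleosomes in the 3 h H3 shutoff libraries, 4 and 4 in the 0 h ones, against 4 (3 h) and 4 (0 h) in wildtype, on both sides of the empty stretch. The nucleosome nearest the gene start, 58 to 95 bp after it, had 79 and 79 read centres in the 3 h H3 shutoff libraries, 95 and 74 in the 0 h ones, against 83 (3 h) and 88 (0 h) in wildtype. The 1 kb before the gene had relative depths of 0.38 to 0.56 in H3 shutoff and 0.40 (3 h) and 0.34 (0 h) in wildtype. These lay at percentiles 1.06 to 7.11 of the 1 kb windows of their libraries. The 1 kb after the gene had 0.84 to 1.03 in H3 shutoff and 0.96 (3 h) and 0.93 (0 h) in wildtype.

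HIS3 was the one marker whose whole body gave no reads. The stretch was 784 and 783 bp long in the 3 h H3 shutoff libraries, 772 and 773 bp in the 0 h ones, against 774 bp (3 h) and 775 bp (0 h) in wildtype. It began 66 to 79 bp before the gene start and ended 693 to 711 bp after it, past the end of the body. The bases empty in all libraries of a strain were chr15:721880-722639 in H3 shutoff and chr15:721869-722642 in wildtype. No read centre and no called nucleosome lay in the body in any library, and with counts of 0 in both strains no fold was computed.

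The flanks of HIS3 were covered beyond the ends of the empty stretch. That stretch reached into both flanks, so their depths include empty bases and the rest of each was deeper. The 1 kb before the gene had relative depths of 1.00 and 0.76 in the 3 h H3 shutoff libraries, 0.67 and 0.83 in the 0 h ones, against 0.81 (3 h) and 0.80 (0 h) in wildtype, which overlapped. The 1 kb after it had 0.83 and 0.58 in the 3 h H3 shutoff libraries, 0.49 and 0.61 in the 0 h ones, against 0.46 (3 h) and 0.44 (0 h) in wildtype. These did not overlap, but the edgeR difference of 0.46 on the log2 scale (SE 0.23) had an adjusted p = 0.295. A nucleosome centred 495 to 501 bp before the gene start had 79 and 63 read centres in the 3 h H3 shutoff libraries, 72 and 106 in the 0 h ones, against 119 (3 h) and 96 (0 h) in wildtype.

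**Figure D3:**
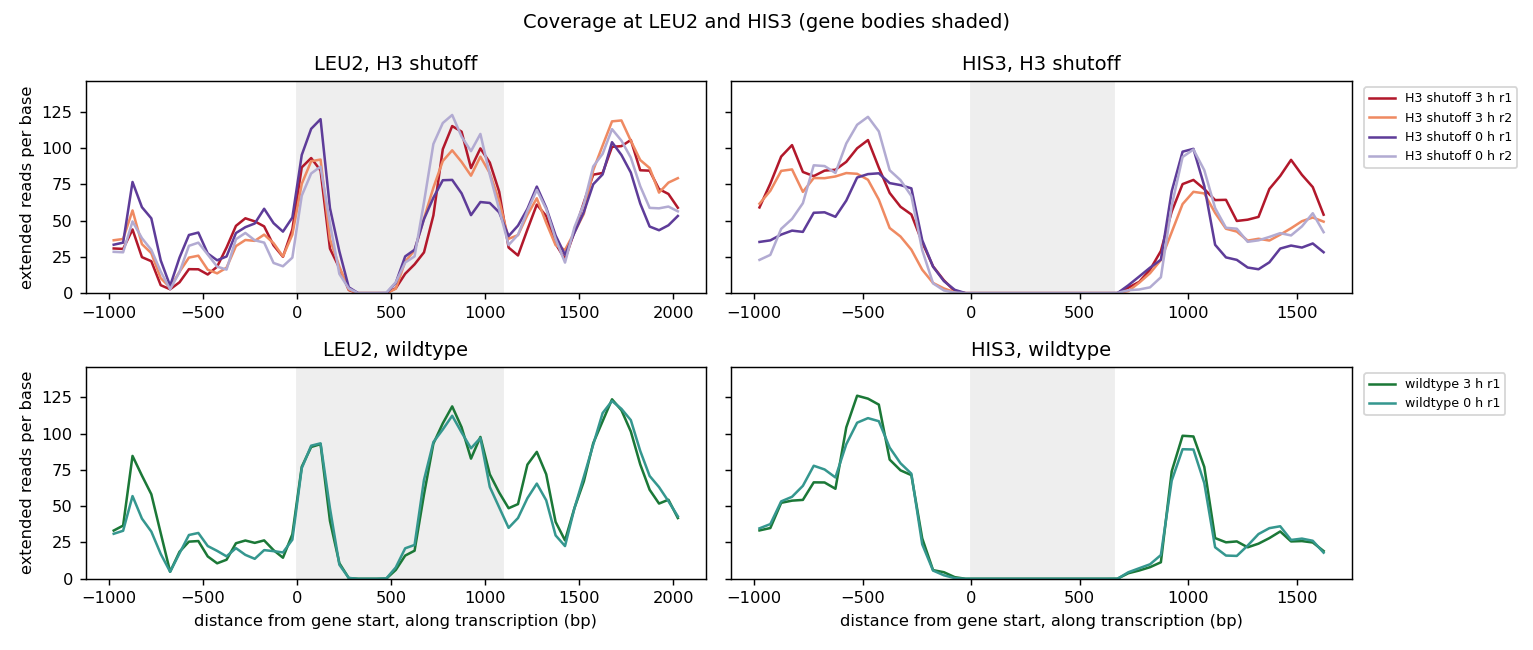
Extended reads per base in bins of 50 bp along LEU2 (left) and HIS3 (right) in the 4 H3 shutoff libraries (top) and the 2 wildtype libraries (bottom), against distance from the gene start. Both strains are at 0 over the inner part of LEU2 and over all of the HIS3 body.

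URA3 was covered in both strains and differed in depth. The relative depth of its body was 1.10 and 1.32 in the 3 h H3 shutoff libraries, 1.46 and 1.32 in the 0 h ones, against 2.58 (3 h) and 2.54 (0 h) in wildtype. The strains did not overlap, with means of 1.30 ± 0.15 in H3 shutoff (SD, n = 4) and 2.56 in wildtype (n = 2), a ratio of 0.509. The edgeR difference was -0.99 on the log2 scale (SE 0.14, adjusted p = 0.0426), and 1 of the 12036 genome windows was lower, itself over URA3. The wildtype depth stood at percentiles 99.4 and 99.5 of the 1 kb windows of its library at 3 h and 0 h. A block by replicate number puts H3 shutoff replicate 1 and the separate wildtype culture at 1 level, while replicate 2 has no wildtype. Such a block therefore pairs no cultures across the strains. The call was lost with the replicate number as a block (adjusted p = 0.415), without H3 shutoff 3 h replicate 1 (adjusted p = 0.0606), without H3 shutoff 0 h replicate 2 (adjusted p = 0.308) and without the wildtype 3 h library (adjusted p = 0.295), with the difference between -0.86 and -1.01 in each.

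Both wildtype libraries were above every H3 shutoff library over 19 bins of 50 bp without a break, 100 bp before to 849 bp after the gene start. Mean coverage there was 87.5 extended reads per base in H3 shutoff, with libraries between 72.1 and 100.5, and 183 in wildtype, with libraries at 188 and 179. They were also above every H3 shutoff library over 4 bins farther before the gene, with a mean of 82.6 extended reads per base in H3 shutoff and 121 in wildtype. The whole 1 kb before the gene had relative depths of 1.07 and 1.05 in the 3 h H3 shutoff libraries, 0.98 and 0.99 in the 0 h ones, against 1.31 (3 h) and 1.26 (0 h) in wildtype, which did not overlap. That difference was -0.35 on the log2 scale (SE 0.12, edgeR adjusted p = 0.209). In the 1 kb after the gene the order was the other way round, with relative depths of 1.00 and 0.84 in the 3 h H3 shutoff libraries, 0.86 and 0.83 in the 0 h ones, against 0.61 (3 h) and 0.75 (0 h) in wildtype. The difference there was 0.37 on the log2 scale (SE 0.17, edgeR adjusted p = 0.274). The share of genome bins in which wildtype was above every H3 shutoff library was not computed.

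**Figure D4:**
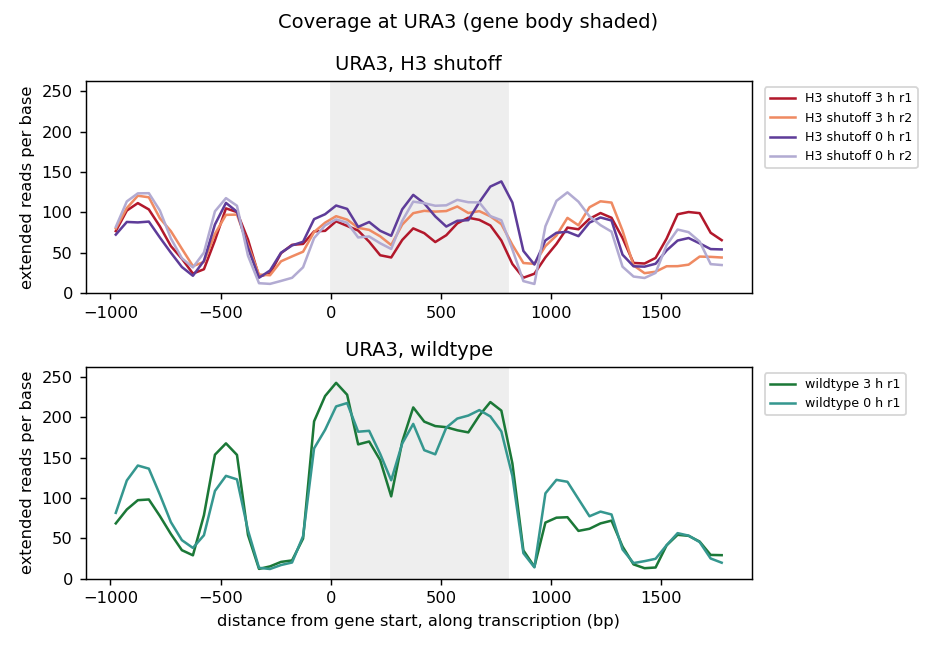
Extended reads per base in bins of 50 bp along URA3 in the 4 H3 shutoff libraries (top) and the 2 wildtype libraries (bottom), against distance from the gene start. Both wildtype libraries are above all H3 shutoff libraries from 100 bp before to 849 bp after the gene start, and over 4 bins farther before the gene.

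The nucleosomes of URA3 lay at like positions in both strains and differed in their counts. The one over the gene start, 7 to 21 bp before it, had 58 and 69 read centres in the 3 h H3 shutoff libraries, 78 and 67 in the 0 h ones, against 213 (3 h) and 166 (0 h) in wildtype. The one 406 to 412 bp after the start had 51 and 77 read centres in the 3 h H3 shutoff libraries, 97 and 90 in the 0 h ones, against 156 (3 h) and 121 (0 h) in wildtype. At both, the lowest wildtype count was above the highest H3 shutoff count. The share of genome nucleosomes for which this held was not computed. The body held 4 and 3 called nucleosomes in the 3 h H3 shutoff libraries, 3 and 4 in the 0 h ones, against 3 (3 h) and 4 (0 h) in wildtype. When each distinct read was counted once, the H3 shutoff to wildtype ratio of the body was 0.642.

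LYS2 was covered over its 4179 bp body in both strains. The relative depth was 1.20 and 1.20 in the 3 h H3 shutoff libraries, 1.19 and 1.33 in the 0 h ones, against 1.29 (3 h) and 1.15 (0 h) in wildtype. The means were 1.23 ± 0.07 in H3 shutoff (SD, n = 4) and 1.22 in wildtype (n = 2). The edgeR difference was -0.01 on the log2 scale (SE 0.22, adjusted p = 0.991). Called nucleosomes in the body numbered 20 and 19 in the 3 h H3 shutoff libraries, 19 and 18 in the 0 h ones, against 17 (3 h) and 17 (0 h) in wildtype.

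Some LYS2 nucleosomes differed widely between libraries of one strain. The one near the end of the gene, 4124 to 4132 bp after its start, had 99 and 170 read centres in the 3 h H3 shutoff libraries, 237 and 150 in the 0 h ones, against 320 (3 h) and 162 (0 h) in wildtype. The one 107 to 120 bp after the start had 67 and 83 in the 3 h H3 shutoff libraries, 143 and 144 in the 0 h ones, against 191 (3 h) and 140 (0 h) in wildtype. At this second site both 3 h libraries of H3 shutoff were below both 0 h libraries, and the share of genome nucleosomes for which this held was not computed. Nucleosomes before the gene, 185 to 248 bp from its start, had 42 and 44 read centres in the 3 h H3 shutoff libraries, 127 and 36 in the 0 h ones, against 120 (3 h) and 37 (0 h) in wildtype.

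**Figure D5:**
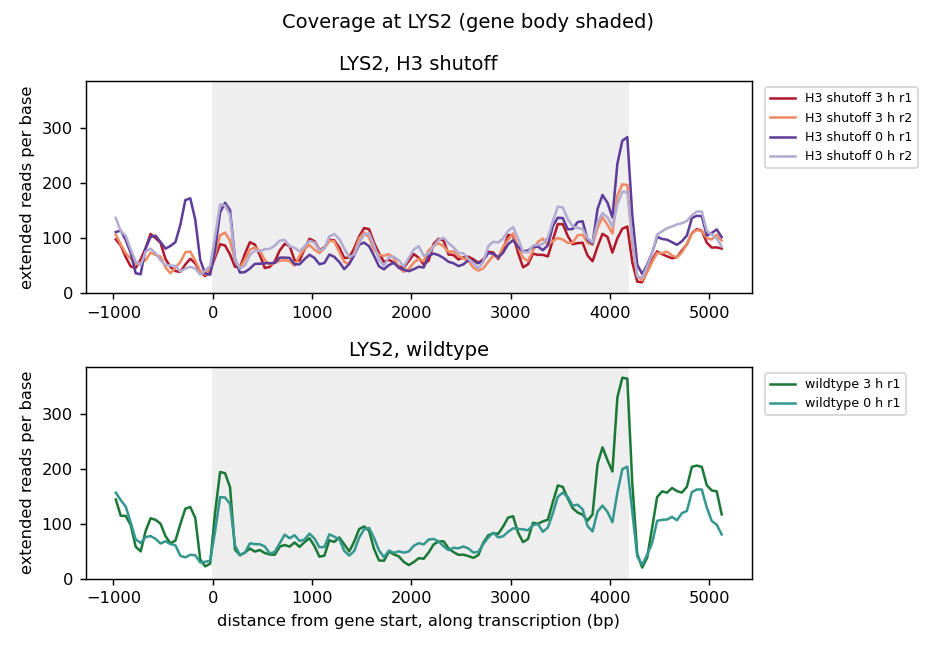
Extended reads per base in bins of 50 bp along LYS2 in the 4 H3 shutoff libraries (top) and the 2 wildtype libraries (bottom), against distance from the gene start. The body is covered in all 6 libraries, and the heights of single peaks vary between libraries of one strain.

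Taking the segments together, 14 of the 15 bodies and flanks had enough reads to be tested between strains, and 2 of the 14 passed, the TRP1 body higher and the URA3 body lower in H3 shutoff. Among genome windows 1 of 12036 passed (0.00831%), higher in H3 shutoff and overlapping TRP1, and 0.0% passed as lower. This genome count was not stable: it was 89 by DESeq2, 395 without H3 shutoff 0 h replicate 1, 2967 without wildtype 0 h and 5506 from the 3 h libraries alone. The median difference was 0.01 on the log2 scale over the 14 segments and 0.01 over all genome windows. In the strain test 18.2% of the genome windows, and 5 of the 14 segments, had an unadjusted p under 0.05. In 5 segments the libraries of the strains did not overlap, the TRP1 body, the 1 kb after HIS3 and the URA3 body with both of its flanks, and this held for 24.5% of the genome windows. In tiles of 100 bp, 156 of the 175 tiles of the loci could be tested and 11 passed (43 at an unadjusted p under 0.05, beside 23.9% of genome tiles), 7 higher in H3 shutoff, all in TRP1, and 4 lower, all in URA3. The lower tiles numbered 1 with the replicate number as a block, and 0 in 200 bp tiles, without H3 shutoff 3 h replicate 1, without H3 shutoff 3 h replicate 2 or without wildtype 3 h. Over the genome 1.70% of tiles passed, 1.55% as higher and 0.147% as lower. The TRP1 tiles inside the wildtype stretch passed the filter on low counts only through the H3 shutoff libraries, so they had to differ. By edgeR 0 tiles of the loci passed without the wildtype 3 h library (21 at an unadjusted p under 0.05) and 0 from the 0 h libraries alone (19 at an unadjusted p under 0.05).

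H3 shutoff at 3 h was tested against 0 h, paired by culture. This difference mixes depletion of histone H3 with the change from galactose to dextrose and the growth arrest the paper reports. Wildtype was not in this fit, so these cannot be told apart in it. By edgeR 0 of the 14 segments passed (1 of them at an unadjusted p under 0.05, and 0 by DESeq2), against 8.91% of the genome windows by edgeR (25.3% at an unadjusted p under 0.05). Of the genome windows 1073 passed by edgeR, 795 by edgeR without the replicate block and 70 by DESeq2. The share thus depends on the model and on the tool. Fits without an H3 shutoff library left 1 at its time, had no pairing and took in the wildtype libraries. Their counts cannot show what that library alone changed. The TRP1 body had a difference of 0.29 on the log2 scale (SE 0.18, adjusted p = 0.326), the URA3 body -0.22 (SE 0.17, adjusted p = 0.425), the LEU2 body 0.04 (SE 0.18, adjusted p = 0.917) and the LYS2 body -0.08 (SE 0.28, adjusted p = 0.890). The segment at an unadjusted p under 0.05 was the 1 kb after LYS2, at -0.33 (SE 0.16, adjusted p = 0.169). In 100 bp tiles 0 of 157 passed (22 at an unadjusted p under 0.05, and 0 by DESeq2), as did 0.0% of the genome tiles by edgeR (20.1% at an unadjusted p under 0.05).

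Whether the change with time differed between the strains was tested as H3 shutoff 3 h minus 0 h less the same difference in wildtype. By edgeR 0 of the 14 segments passed (2 at an unadjusted p under 0.05, and 0 by DESeq2), against 2.56% of the genome windows by edgeR (19.2% at an unadjusted p under 0.05). Of the genome windows 308 passed by edgeR, against 0 by DESeq2 (524 at an unadjusted p under 0.05), 0 by edgeR without the replicate block (2551 at an unadjusted p under 0.05), 3 without H3 shutoff 3 h replicate 1 and 2496 without H3 shutoff 0 h replicate 2. The smallest adjusted p was that of the 1 kb after LYS2, where the difference was -0.77 on the log2 scale (SE 0.28, adjusted p = 0.0953). The 1 kb before TRP1 had -0.69 (SE 0.31, adjusted p = 0.193). Wildtype had 1 library at each time, so this test rests on the spread between the H3 shutoff cultures.

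Called nucleosomes were compared between 3 h and 0 h within each culture by a binomial test on their read centres, Bonferroni corrected over all nucleosomes of the pair, which covers counting error only. In the paper's terms, reduced means fewer read centres at 3 h than at 0 h and retained means more. Each was called at a corrected p under 0.01, and nucleosomes in neither class had no change that passed. In H3 shutoff replicate 1, 3 of 69 nucleosomes of the loci were reduced at 3 h (background 4.69%) and 0 were retained (background 1.16%). All 3 belonged to LYS2, the nucleosomes 4130 and 116 bp after and 248 bp before the gene start. In H3 shutoff replicate 2, 0 of 68 were reduced (background 3.0%) and 1 was retained (background 0.701%). It was in LEU2, with 60 read centres at 3 h and 15 at 0 h at centres 81 bp apart, and it did not pass when both times were counted in the window of the 0 h centre. In wildtype 0 of 62 were reduced (background 0.363%) and 3 were retained (background 0.992%), the LYS2 nucleosomes 4132 bp after and 240 bp before the gene start and the TRP1 nucleosome 356 bp before it. None of the LYS2 nucleosomes reduced in H3 shutoff replicate 1 was called reduced in replicate 2.

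The loci held 79 and 74 called nucleosomes in the 3 h H3 shutoff libraries, 74 and 73 in the 0 h ones, against 65 (3 h) and 68 (0 h) in wildtype. The genome held 57493 and 55487 in the 3 h H3 shutoff libraries and 54276 and 52459 in the 0 h ones. In wildtype it held 51281 (3 h) and 51419 (0 h), so H3 shutoff had more calls over the genome too. The authors' caller allows no second centre within 1 protected region, sized by the length of the extended reads. That length was 158 and 165 bp in the 3 h H3 shutoff libraries, 170 and 172 bp in the 0 h ones and 174 bp in wildtype. Whether the numbers of calls follow from it was not tested, so they do not show that a strain has more nucleosomes. Fuzziness, the standard deviation of the read centres of a nucleosome, had a median of 39.6 and 41.0 bp in the 3 h H3 shutoff libraries, 39.3 and 37.9 bp in the 0 h ones, against 34.2 bp (3 h) and 34.8 bp (0 h) in wildtype. Over the genome the medians were 38.1 and 40.0 bp in the 3 h H3 shutoff libraries, 36.4 and 35.1 bp in the 0 h ones, against 30.5 bp (3 h) and 31.0 bp (0 h) in wildtype, in the same order between the strains. Between 3 h and 0 h the centres of the loci moved by a median of 9 bp in each H3 shutoff culture and 6 bp in wildtype, beside 12 bp in each H3 shutoff culture and 4 bp in wildtype over the genome. In LEU2 the median was 9 bp in H3 shutoff replicate 1, 66 bp in H3 shutoff replicate 2 and 27 bp in wildtype.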

How the data were processed

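The authors aligned single-end reads to sacCer1 with Bowtie 0.12.6, extended each to the average fragment size, removed the ribosomal DNA (chromosome 12, 450000 to 472500) and drew equal numbers of reads. The deposited intervals give position and no strand, and the authors also deposited nucleosome lists with whole-number counts of read centres, not normalized. Recounting gave identical counts for at least 99.996% of nucleosomes. The read centre was placed by the rule that gave back those counts. A rule 1 bp off had been run first, and its results were known when this was settled. The members and lists were chosen with earlier results of these data known. Groups came from the labels. Windows, tiles and segments averaging 10 or more read centres entered edgeR 4.0.16 (glmQLFit, glmQLFTest, TMM, R 4.3.3), with adjusted p under 0.05 called. Terms were time and strain for the strain test and culture and time for the others. DESeq2 1.42.0 was an alternative. Figures and counts used Python 3.11.15. The 3 h and 0 h libraries of a replicate came from 1 culture, and the deviations of both H3 shutoff cultures at the 2 times had r = -0.097 over 114442 tiles, so the pairing rests on the design. Replicates at 0 h and 3 h differed by more than sampling noise (chi-square per degree of freedom 3.55 and 1.85). On simulated data the strain test on windows recovered 99% of changes of 2-fold, the time test 98% and the interaction test 40%. On tiles the strain test recovered 16% and the time test 5%. The simulated libraries were independent, with no culture effect and the same dispersion for all windows or tiles of like depth. These shares therefore do not give the power in the real data. Promoter motifs and pathway genes were not analysed here, and no sequences are printed. Wildtype was 1 culture with 1 library a time, and the strain test had no culture term. Its p-values therefore measure the spread between these libraries, not between cultures.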

Additional observations from a re-analysis of the deposited data

How the results depend on the processing

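Of 167 alternative values for 21 results, 121 stayed the same, 4 lost a call and 42 moved. Staying the same meant keeping direction and side of the threshold, staying within the spread or, for a count, within 1.5-fold. The 4 were the URA3 body without each of 3 libraries or with the block, given with its test. In the strain test on windows 2 segments passed, against 7 of 14 from the 3 h libraries alone (beside 5506 of 12036 genome windows) and 1 with the replicate number as a replicate block (beside 0). Leaving out 1 library gave 1 to 3, the 3 without wildtype 0 h (beside 2967 of 12037). In tiles 11 passed, against 0 from the 0 h libraries alone (beside 0 genome tiles), 54 of 156 from the 3 h libraries alone (beside 38591 of 114203) and 3 of 81 in 200 bp tiles (beside 8 of 59584). Leaving out 1 library gave 0 to 25, the 25 without wildtype 0 h (beside 16291 of 113785). The block gave 8 tiles, 7 higher and 1 lower. For the TRP1 body the difference was 3.09 with the block, and 2.75 to 3.34 without each library. In the time test leaving out 1 library gave 0 to 1 segments, and in the interaction test 0 to 3. Those fits had no pairing, and those of the time test also took in wildtype libraries, which its main fit left out. The interaction could not be fitted without a wildtype library.

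Moving read centres by 1 bp, chosen after seeing the data, changed no count of segments or tiles of the loci called at the adjusted p. At an unadjusted p under 0.05 the strain test had 6 segments and 45 tiles, against 5 and 43, and the time test 23 tiles, against 22. The time test on tiles then called 630 of 114428 genome tiles, against 0 of 114442. The same count was 910 by DESeq2, 1276 without the filter on low counts, 1693 without the block and 2089 with the grid moved by 50 bp, so a genome count of 0 in tiles is not stable and the cause was not tested.

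Allowing at most 2 reads per base, the stretches common to a strain were 356 bp (TRP1, wildtype), 219 and 241 bp (LEU2, H3 shutoff and wildtype), 787 and 789 bp (HIS3, H3 shutoff and wildtype). By read centres they were 511, 370 and 403, 930 and 947 bp in the same order. Without single libraries, also chosen after seeing the data, they were 342 to 351, 199 to 220, 232 to 234, 760 to 772 and 774 to 775 bp. A minimum of 200 bp left no LEU2 stretch common to H3 shutoff. With each distinct read counted once, the H3 shutoff to wildtype ratio was 5.81 for TRP1, 0.954 for LEU2 and 0.642 for URA3. Without single libraries it was 6.25 to 11.3 for TRP1 (11.3 without wildtype 3 h), 1.00 to 1.05 for LEU2, 0.488 to 0.535 for URA3 and 0.953 to 1.06 for LYS2. H3 shutoff replicate 2 had 0 changed nucleosomes in the loci, against 1, with TMM-scaled totals or a common window. With more than 20 read centres required, the loci held a mean of 69 called nucleosomes in H3 shutoff and 58.5 in wildtype, against 75 and 66.5.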

Other observations

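The same 2 libraries, H3 shutoff 0 h replicate 1 and wildtype 3 h, had the highest counts at several nucleosomes of the loci. It did not hold at others, and the pattern was noticed after the values were seen. The share of nucleosomes for which it held was not computed, in the loci or in the genome. At the TRP1 nucleosome about 352 bp before the gene start these had 221 and 164 read centres, against 57 to 128 in the other 4 libraries. At the LYS2 nucleosome about 4130 bp after the start these had 237 and 320, against 99 to 170. At the LYS2 nucleosome before the gene these had 127 and 120, against 36 to 44. Further sites were the LYS2 nucleosome about 3947 bp after the start, with 146 and 186 against 87 to 110, and a HIS3 one. That one, about 1000 bp after the start, had 96 and 97 against 53 to 86. They differ in strain and in time, and why these sites were high in them was not tested.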
